A study of Mus musculus with 21 samples.

Results

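The cornified envelope genes described here are 51 of the 55487 named genes in the skin count table: all genes whose symbol begins with *Lce* or *Sprr*, plus *Flg*, *Flg2*, *Hrnr*, *Rptn*, *Ivl*, *Lor*, *Tchh*, *Tchhl1*, *Cnfn*, *Crct1*, *Tgm1*, *Tgm3* and *Tgm5*. They were chosen by name, with earlier results of these data known. They hold 14 *Lce1* genes, 6 *Lce3* genes, *Lce6a*, 2 *Sprr1* genes, 13 *Sprr2* genes, *Sprr3*, *Sprr4*, 6 S100 fused-type genes (*Flg*, *Flg2*, *Hrnr*, *Rptn*, *Tchh* and *Tchhl1*), 4 other precursors (*Lor*, *Ivl*, *Cnfn* and *Crct1*) and 3 transglutaminases. In the GRCm38 annotation, 47 of them lay within 1392 kb of chromosome 3 (chr3:92080271-93471980), the epidermal differentiation complex, while *Tgm3* and *Tgm5* lay on chromosome 2, *Cnfn* on chromosome 7 and *Tgm1* on chromosome 14.

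Bulk poly-A RNA sequencing was done on skin of 12-month-old mice. Interferon kappa (*Ifnk*) transgenic (TG) mice carried *Ifnk* under the keratin 14 promoter, which is active in basal keratinocytes, backcrossed onto BALB/c. The 9 skin libraries were 3 of wild-type (WT) BALB/c skin, 2 of nonlesional (NL) *Ifnk* TG skin and 4 of lesional (L) *Ifnk* TG skin, and none was irradiated. The labels did not give the sex, body site or mouse of a library. By the study's methods, lesions were taken wherever they occurred and nonlesional skin from the back and areas comparable to the lesions, so that body site and lesion cannot be told apart here. Nothing in the labels said whether nonlesional and lesional samples came from the same mice, and the p-values measure only the spread between these libraries, which may be technical.

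The cornified envelope is the protein and lipid shell that replaces the plasma membrane of keratinocytes as they die at the skin surface. Loricrin, involucrin, the small proline-rich (SPRR) proteins and the late cornified envelope (LCE) proteins are its building blocks, and transglutaminases join them by cross-links. Filaggrin and its S100 fused-type relatives bundle keratin filaments or, in the case of trichohyalin, harden the inner root sheath and medulla of the hair, while SPRR proteins are known to be induced in stressed and wounded epidermis.

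The skin libraries held 40499078 to 56511276 counts. Levels are given as CPM, the usual count scaled to library size, here with trimmed mean of M values (TMM) factors. *Ifnk* itself was at 0 in the 3 WT libraries, 0.115 CPM in NL library 2, 0 in NL library 3 and 0.110 to 0.271 CPM in the lesional libraries, which is too few reads to check the genotype of each library. *Xist*, which is transcribed in females, was 0.319 CPM in NL library 3, 0.132 CPM in L library 6 and at least 78.9 CPM in the other libraries, so that sex differed within the TG groups. Markers of other tissues moved with the lesion. The 10 hair shaft keratins found in the table summed to 6.81 to 11.04 CPM in WT and NL skin and 1969 to 6275 CPM in lesional skin, and all 10 rose, while 10 skeletal muscle genes summed to 31360 to 46850 CPM in WT and NL skin and 31.1 to 9342 CPM in lesional skin. L library 7 had the lowest sum of 11 basal keratinocyte genes, 4384 CPM against 8916 to 11050 CPM in the other lesional libraries, and L library 4 the highest sum of the keratinocyte-acting cytokine list, 422 CPM against 27.8 to 41.2 CPM. In bulk skin, fewer cells of a type and less RNA per cell cannot be told apart.

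The RefSeq promoter windows (GRCm38.p6, 250 bases before to 50 after each gene's start) were found for 46 members, and 6 of them are shown as the 200 bases before the start, 5′ to 3′ on the gene's strand. They were picked after the values were seen to set *Lor*, which did not pass the test in lesions, beside genes that were almost silent or, for *Lce1g*, scarce outside them. Capitals mark matches to an AP-1 motif (TGANTCA) or a TATA box (TATAAA), and *Lce1g* and *Lce3f* hold neither in this stretch.
Lor, chr3:92083143-92083342, minus strand: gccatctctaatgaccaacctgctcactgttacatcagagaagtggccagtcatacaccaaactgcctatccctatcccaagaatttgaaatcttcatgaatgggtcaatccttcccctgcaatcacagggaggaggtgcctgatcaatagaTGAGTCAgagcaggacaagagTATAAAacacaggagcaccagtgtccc
Sprr1b, chr3:92438780-92438979, minus strand: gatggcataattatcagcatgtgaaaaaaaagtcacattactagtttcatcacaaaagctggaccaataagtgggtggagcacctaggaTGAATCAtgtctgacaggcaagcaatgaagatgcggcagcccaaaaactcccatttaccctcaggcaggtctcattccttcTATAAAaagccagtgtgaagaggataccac
Sprr2d, chr3:92338940-92339139, plus strand: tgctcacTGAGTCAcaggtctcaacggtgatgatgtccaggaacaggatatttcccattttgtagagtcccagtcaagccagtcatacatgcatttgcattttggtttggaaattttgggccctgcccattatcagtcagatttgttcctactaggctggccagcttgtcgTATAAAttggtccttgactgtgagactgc
Sprr2h, chr3:92385485-92385684, plus strand: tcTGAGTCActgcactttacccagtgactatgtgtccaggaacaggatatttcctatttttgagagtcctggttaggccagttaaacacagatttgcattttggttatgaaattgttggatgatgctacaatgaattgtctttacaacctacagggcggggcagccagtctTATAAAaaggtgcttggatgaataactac
Lce1g, chr3:92752339-92752538, minus strand: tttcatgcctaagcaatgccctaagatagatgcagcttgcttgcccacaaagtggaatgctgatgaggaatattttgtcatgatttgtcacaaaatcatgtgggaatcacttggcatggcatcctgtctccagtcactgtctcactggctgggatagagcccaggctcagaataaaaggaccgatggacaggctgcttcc
Lce3f, chr3:92992017-92992216, plus strand: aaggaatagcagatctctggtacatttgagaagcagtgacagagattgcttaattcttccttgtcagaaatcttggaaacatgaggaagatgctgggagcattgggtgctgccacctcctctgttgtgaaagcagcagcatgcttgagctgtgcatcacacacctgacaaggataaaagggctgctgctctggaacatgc

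Both strands of each window were searched. The AP-1 motif was found in 15 of the 46 member windows and in 7.81% of all 32851 mouse windows. It was found in 7 of 10 *Sprr2* windows, where it began 193 to 198 bases before the start with a TATA box at 29 bases (*Sprr2k* held a second match at 182 bases), and in those of *Sprr1a*, *Sprr1b*, *Ivl*, *Lor*, *Flg*, *Flg2*, *Rptn* and *Tchhl1*. None of the 13 *Lce1* and 6 *Lce3* windows held it. A C/EBP motif (TTNNGNAA), present in 40.7% of all windows, was found in 29 of the 46 member windows. It was in all 6 *Lce3* windows, in 9 of 10 *Sprr2* windows and in 2 of 13 *Lce1* windows. The interferon-type motif GAAANNGAA was found in 5 of the 46 member windows and in 8.56% of all windows. These were *Tgm1*, *Sprr2f* and the near-identical copies *Sprr2a1*, *Sprr2a2* and *Sprr2a3*, of which the first and second have the same window sequence. A match is a run of letters and not a measured binding site.

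Most cornified envelope genes rose in lesions. Of the 51, 48 passed the filter on low counts, and 44 of these were higher in lesional than WT skin and none lower (edgeR quasi-likelihood test, Benjamini-Hochberg adjusted p under 0.05, the test behind every adjusted p below), while 1 was lower at an unadjusted p under 0.05 and 1 by DESeq2, in both cases *Lce1m*. Of all 19101 genes tested, 23.0% were higher and 20.2% lower. The fitted log2 fold change had a median of 3.66 over the 48 (3.49 with genes absent from WT at their lower bound), beside 0.06 over all genes tested. All 4 lesional libraries lay above all 3 WT libraries for 44 members, as for 26.0% of all genes tested, and below them for 1, *Lce1m*, as for 23.4%. Not called were *Lor*, *Flg2*, *Lce1l* and *Lce1m*. Because 18 of the 48 had fewer than 10 counts in some library and could pass the filter through the lesional group, the count was repeated on genes with at least 10 counts in every library: 26 of 30 members were higher, as were 22.0% of such genes. The 18 were *Sprr1b*, *Tchhl1*, all *Lce3* genes and every tested *Sprr2* gene but *Sprr2a2*, so the repeat held none of these. Removing the members and the hair, muscle and fat genes from the scaling left 44 higher.

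Against nonlesional skin, 35 members were higher in lesions and 1, *Lce1m*, was lower, as were 13.2% and 11.8% of all genes tested. Of the 30 members with at least 10 counts in every library, 17 were higher, as were 13.3% of such genes. The nonlesional group had 2 libraries: without NL library 2 the count was 18, and without NL library 3 it was 13, both over the same 48 genes. Lost calls are listed here only for the 24 genes given by library, and those of other members are not listed. With either NL library left out, the calls of *Hrnr*, *Rptn*, *Ivl*, *Lce1m*, *Lce3c*, *Lce3e*, *Sprr2i* and *Sprr4* against NL were lost. That of *Sprr1b* was lost without NL library 3. These fits leave 1 NL library, which is assumed to vary like the other groups. With only the compared groups fitted, the calls of *Hrnr*, *Rptn* and *Sprr4* against NL were lost, and without the filter on low counts those of *Rptn* and *Sprr4*. With *Xist* as a covariate, 31 members were higher than NL. The comparisons with WT and with NL share the lesional libraries.

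**Figure D1:**
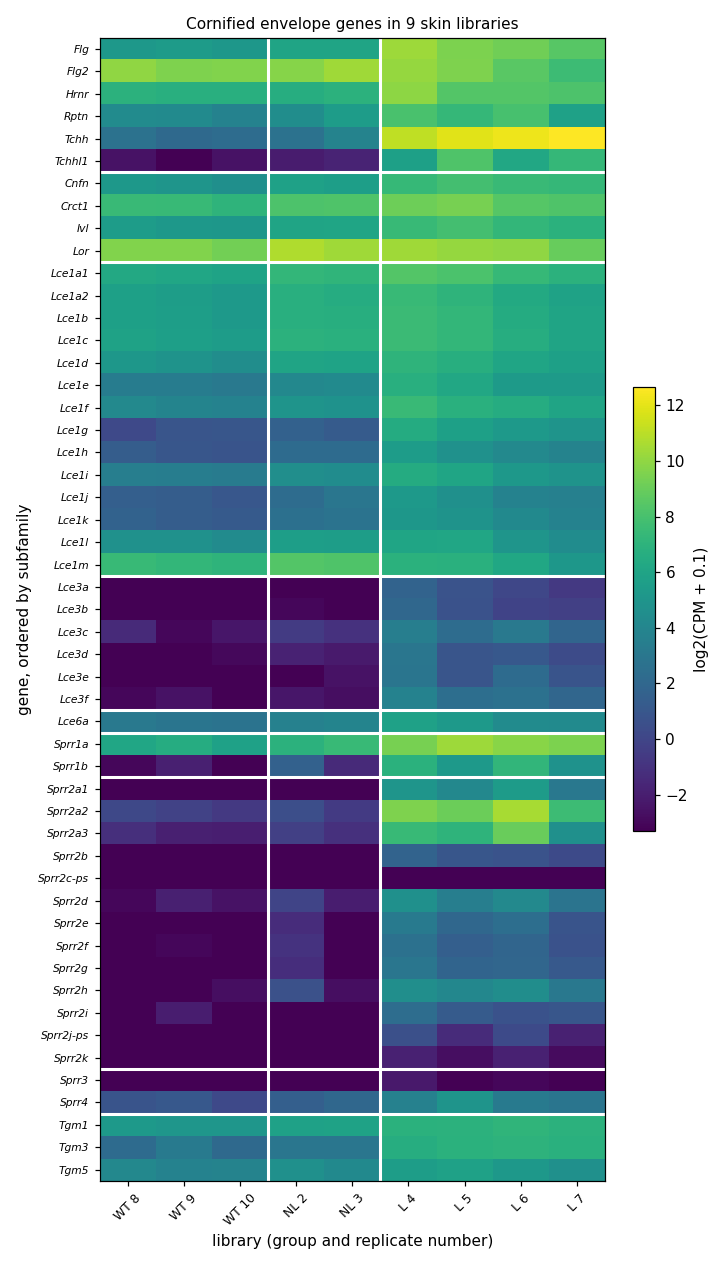
Level of the 51 cornified envelope genes (rows, by subfamily) in the 9 skin libraries (columns, 3 WT, 2 nonlesional and 4 lesional), as log2(CPM + 0.1). The *Lce3* and *Sprr2* rows were dark (low) in WT and nonlesional skin and brighter in lesions, except *Sprr2c-ps* at 0 throughout and *Sprr2k* with few counts, whereas *Lor*, *Flg2* and *Lce1m* were high in all 3 groups.

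Among the S100 fused-type genes, *Flg* rose and its neighbour *Flg2* did not pass the test. *Flg*, which encodes profilaggrin, was 35.9, 43.5 and 34.7 CPM in WT libraries 8, 9 and 10, 63.6 and 65.1 CPM in NL libraries 2 and 3, and 1249, 720, 586 and 356 CPM in L libraries 4 to 7. All lesional libraries were several times above the others, and the fitted log2 fold change was 4.26 against WT (SE 0.43, adjusted p = 0.000254) and 3.50 against NL (SE 0.49, adjusted p = 0.00256). *Flg2*, a relative of filaggrin, was 1013, 755 and 795 CPM in WT, 864 and 1332 CPM in NL, and 1093, 741, 381 and 194 CPM in lesions. The groups overlapped, with a fitted log2 fold change of -0.50 (SE 0.51, adjusted p = 0.453) against WT. Per kb of exon, the group mean level of *Flg2* was 41.1 in WT and 52.8 in NL skin against 2.02 and 3.42 for *Flg*, and in lesions it was 29.0 against 38.7 CPM per kb for *Flg*.

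*Hrnr*, encoding hornerin, was 108 to 122 CPM in WT, 101 and 124 CPM in NL, and 971, 339, 327 and 295 CPM in lesions. The fitted log2 fold change was 2.10 against WT (adjusted p = 0.00597) and 2.10 against NL (adjusted p = 0.0208). Without L library 4 they were 1.50 and 1.51. *Rptn*, encoding repetin, was 13.2 to 20.6 CPM in WT, 22.8 and 44.7 CPM in NL, and 266, 158, 257 and 55.2 CPM in lesions. It rose against both, with log2 fold changes of 3.35 (adjusted p = 0.00272) and 2.45 (adjusted p = 0.0289).

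*Tchh*, encoding trichohyalin, was 6.39, 4.25 and 4.82 CPM in WT, 6.42 and 13.8 CPM in NL, and 2259, 3974, 4768 and 6430 CPM in L libraries 4 to 7. *Tchhl1*, its smaller neighbour, was at most 0.0742 CPM in WT, 0.134 and 0.196 CPM in NL, and 53.3, 311, 77.5 and 161 CPM in lesions. The fitted log2 fold changes against WT were 9.72 (SE 0.58, adjusted p = 4.71e-05) and 11.55 (SE 1.07, adjusted p = 0.00023), and that of *Tchhl1* was 10.92 without L library 5. The 8 inner root sheath keratins summed to 2.50 to 3.75 CPM in WT, 2.60 and 9.22 CPM in NL, and 3294, 7615, 11070 and 15260 CPM in L libraries 4 to 7, and all 8 rose against both groups. *Tchh* had the same order over the 4 lesional libraries as this sum, and *Tchhl1* did not. The part of hair follicle content in the *Tchh* and *Tchhl1* values was not tested.

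**Figure D2:**
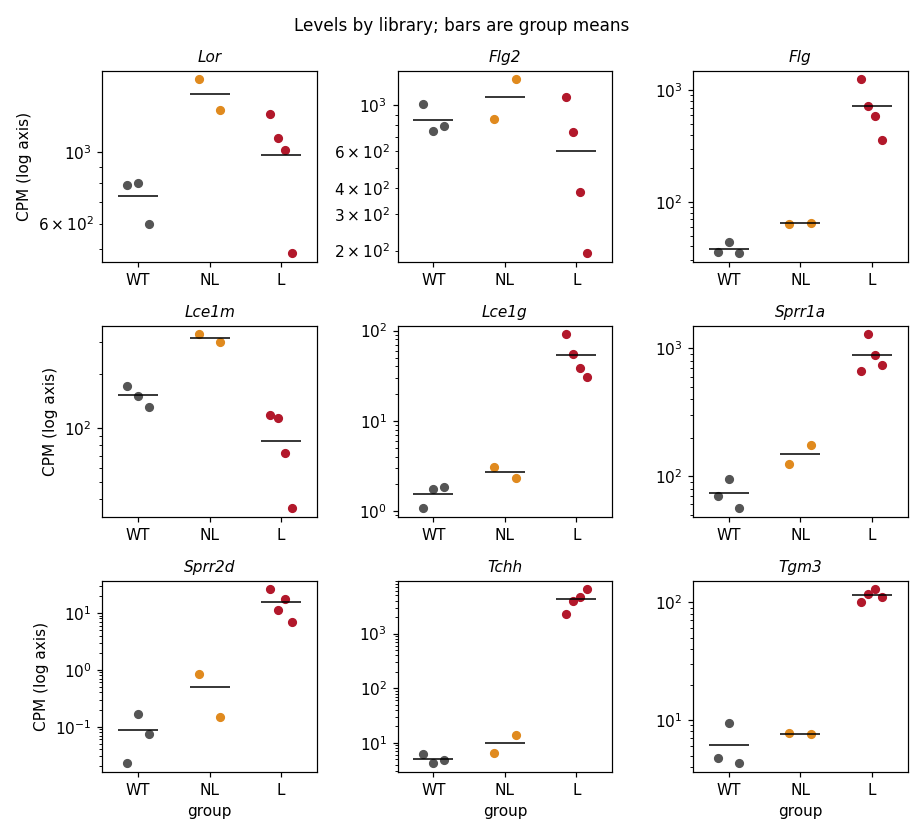
Level of 9 cornified envelope genes in each skin library (points, CPM on a log axis) by group, with the group mean as a bar. *Lor* and *Flg2* overlapped between WT and lesional skin, *Lce1m* was lowest in lesions, and *Flg*, *Lce1g*, *Sprr1a*, *Sprr2d*, *Tchh* and *Tgm3* were higher in all 4 lesional libraries than in any other.

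*Lor*, encoding loricrin, the main protein of the mature envelope, was 789, 802 and 599 CPM in WT, 1685 and 1351 CPM in NL, and 1317, 1104, 1014 and 485 CPM in lesions. Of the lesional libraries, 3 lay between WT and NL and L library 7 lay below both. The fitted log2 fold change was 0.43 against WT (SE 0.31, adjusted p = 0.29) and -0.63 against NL (SE 0.34, adjusted p = 0.198). Without L library 7, *Lor* was called higher than in WT, with a fitted log2 fold change of 0.65 (adjusted p = 0.0195).

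The other 3 precursors rose. *Ivl*, encoding involucrin, the first scaffold laid down under the membrane, was 35.3 to 46.3 CPM in WT, 64.5 and 66.4 CPM in NL, and 177, 233, 153 and 120 CPM in lesions, a log2 fold change of 2.11 against WT (adjusted p = 0.000264) and 1.38 against NL (adjusted p = 0.00601). *Cnfn*, encoding cornifelin, was 24.2 to 36.3 CPM in WT, 55.7 and 48.6 CPM in NL, and 166, 230, 178 and 156 CPM in lesions, the largest and tightest change of the 4, at 2.56 (SE 0.19, adjusted p = 7.54e-05) against WT and 1.81 (adjusted p = 0.00137) against NL. *Crct1*, a small cysteine-rich gene at the end of the *Lce* cluster, was 135 to 181 CPM in WT, 289 and 308 CPM in NL, and 549, 660, 350 and 311 CPM in lesions. It rose against WT (log2 fold change 1.51, adjusted p = 0.00261), while its difference from NL was 0.65 (SE 0.30, adjusted p = 0.148).

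Among the *Lce1* genes, those that were scarce in unaffected skin had the larger fitted changes. Of the 14, 12 rose against WT, and against NL 6 rose, 1 fell and 7 did not pass the test. The calls against NL rest on 2 NL libraries, with the limits given above for all members. *Lce1g*, a scarce member, was 1.07, 1.76 and 1.83 CPM in WT, 3.06 and 2.33 CPM in NL, and 90.7, 54.8, 39.0 and 30.8 CPM in lesions. Every lesional library was far above every other one, and the log2 fold change was 5.12 against WT (SE 0.46, adjusted p = 0.000175) and 4.32 against NL (adjusted p = 0.00163). *Lce1m*, the highest *Lce1* gene per kb outside lesions and the one lying apart, beyond *Lce3* and next to *Crct1*, was 173, 152 and 132 CPM in WT, 332 and 302 CPM in NL, and 117, 114, 72.4 and 35.7 CPM in lesions. Its lesional libraries were the lowest of all, with a log2 fold change of -1.90 against NL (SE 0.39, adjusted p = 0.0107) and -0.84 against WT (SE 0.36, adjusted p = 0.0885). The difference from WT was called lower by DESeq2, with scaling to basal keratinocyte genes and without L library 7.

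The remaining 12 *Lce1* genes lay between these. Those that rose against NL, *Lce1e*, *Lce1f*, *Lce1h*, *Lce1j* and *Lce1k* beside *Lce1g*, had mean levels of 2.91 to 40.4 CPM per kb of exon in NL skin, and the 7 that did not pass the test had 31.6 to 205 CPM per kb. Over the 14 genes, the log2 level per kb in NL skin and the fitted log2 fold change of lesional against WT skin had a Pearson r of -0.923 and a Spearman rho of -0.873, as a description: the points share all libraries, and the genes are relatives with up to 90.04% identity between longest transcripts, so that reads could be split between them.

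**Figure D3:**
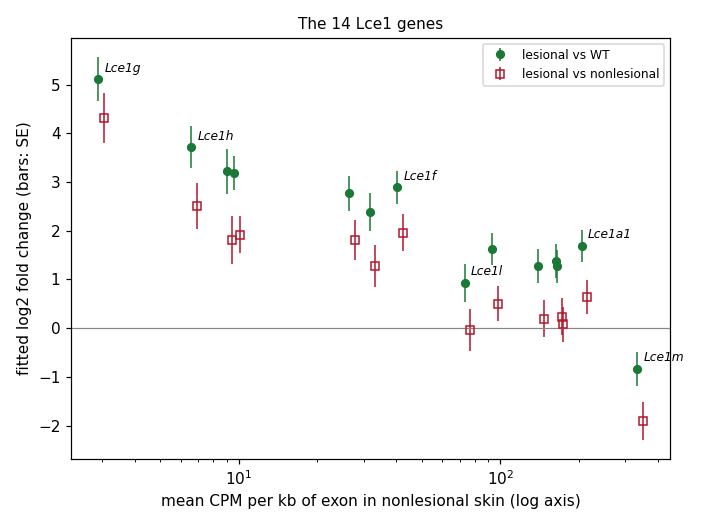
Fitted log2 fold change (with SE) of the 14 *Lce1* genes in lesional skin against WT (filled) and nonlesional skin (open), by mean CPM per kb of exon in nonlesional skin on a log axis. Changes ran from 5.12 for the scarce *Lce1g* to -0.84 for the abundant *Lce1m* against WT, and from 4.32 to -1.90 against nonlesional skin.

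The *Lce3* genes, known for their induction in injured and psoriatic epidermis, were at or near 0 outside lesions and all 6 rose against both groups. All 6 could pass the filter on low counts through the lesional group. Their calls against NL rest on 2 NL libraries, and over all members fewer held with either left out, as given above. *Lce3c* was 0.274, 0.0237 and 0.0989 CPM in WT, 0.593 and 0.392 CPM in NL, and 11.2, 4.96, 8.51 and 3.62 CPM in lesions, a log2 fold change of 5.70 against WT (SE 0.71, adjusted p = 0.000528) and 3.83 against NL (adjusted p = 0.00761). Without WT library 8 the change against WT was 6.80. *Lce3e* had no counts in WT and 3 counts in NL, and was 7.19, 1.73, 4.65 and 1.66 CPM in lesions. It exceeded WT, taken at a floor of 3 counts per library, by at least 53.4-fold (adjusted p = 0.00218). Against NL the ratio was 121 with an exact 95% counting interval of 41.4 to 590 (adjusted p = 0.0126), which covers counting error only. Even in lesions the family was scarce per kb of exon, with a sum of 19.7 to 81.9 CPM per kb against 875 to 2494 CPM per kb for *Lce1*. *Lce6a*, the single other *Lce* gene, was 6.73 to 8.80 CPM in WT, 13.02 and 14.7 CPM in NL, and 55.3, 38.9, 20.5 and 20.1 CPM in lesions, and rose against WT (log2 fold change 2.15, adjusted p = 0.00259) but missed the threshold against NL (1.28, adjusted p = 0.0562).

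Of the SPRR genes, *Sprr1a* was expressed in all skin and *Sprr1b* almost only in lesions. *Sprr1a* was 70.2, 94.8 and 56.1 CPM in WT, 125 and 175 CPM in NL, and 665, 1287, 890 and 739 CPM in lesions, and the log2 fold change was 3.60 against WT (SE 0.31, adjusted p = 0.000124) and 2.58 against NL (adjusted p = 0.00202). *Sprr1b* was at most 0.166 CPM in WT, 3.04 and 0.270 CPM in NL, and 116, 39.9, 146 and 27.9 CPM in lesions. Its log2 fold change was 10.29 against WT (SE 1.39, adjusted p = 0.000965) and 5.61 against NL (SE 1.22, adjusted p = 0.014). The change against WT was 12.46 without WT library 9, and that against NL was 8.24 without NL library 2 and 4.77 without NL library 3, where its call was lost.

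All 11 tested *Sprr2* genes rose against both groups, although 9 of the 11 were called against NL with *Xist* as a covariate. All but *Sprr2a2* had fewer than 10 counts in some library and could pass the filter through the lesional group. The calls against NL rest on 2 NL libraries, and over all members fewer held with either left out, as given above. In those fits only *Sprr2a1*, *Sprr2a2* and *Sprr2i* were followed one by one. *Sprr2a2* was 1.00, 0.784 and 0.519 CPM in WT, 1.34 and 0.564 CPM in NL, and 759, 529, 1490 and 198 CPM in lesions, with a log2 fold change of 9.91 against WT (SE 0.95, adjusted p = 0.000257) and 9.59 against NL (adjusted p = 0.00165). Without L library 6 these were 9.32 and 9.00, and the change against NL was 10.36 without NL library 2. *Sprr2a1* had no counts in any WT or NL library and 32.8, 17.7, 44.1 and 8.32 CPM in lesions, which is at least 361-fold the floor of 3 counts per WT library (adjusted p = 0.00187). *Sprr2a1*, *Sprr2a2* and *Sprr2a3* are uncertain one by one: each was 95.4 to 98.27% identical to its nearest copy over the longest transcript, and the first and second gene models overlap by 5992 bases. *Sprr2i* had the lowest fitted log2 fold change against WT of the tested *Sprr2* genes, 5.74, but this was 9.96 without WT library 9. It was 0.143 CPM in WT library 9 and 0 in the other WT and NL libraries. In lesions it was 5.03, 2.29, 1.52 and 1.84 CPM, at least 40.8-fold higher than NL (adjusted p = 0.00801).

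Counts of *Sprr2d*, *Sprr2e*, *Sprr2f*, *Sprr2g* and *Sprr2h*, singled out after their values were seen, came in NL skin mostly from library 2. There they were 0.860, 0.306, 0.401, 0.325 and 1.45 CPM in that order, and in NL library 3 0.147, 0, 0, 0 and 0.0491 CPM. In lesions they were between 1.50 CPM (*Sprr2f*, L library 7) and 25.9 CPM (*Sprr2d*, L library 4). In the printed promoters of *Sprr2d* and *Sprr2h*, the AP-1 match begins 193 and 198 bases before the start, and the TATA box 29 bases before it in both. Of the untested members, *Sprr2c-ps* had no counts in any library, *Sprr2k* had 22 and *Sprr3*, a gene of mucosal and stratified epithelia, 7 counts over the 4 lesional libraries and neither had any outside them. *Sprr4* was 1.67, 1.99 and 1.04 CPM in WT, 2.71 and 4.02 CPM in NL, and 12.9, 31.1, 8.97 and 7.33 CPM in lesions, with a log2 fold change of 3.26 against WT (adjusted p = 0.00259) and 2.16 against NL (adjusted p = 0.0374). Without L library 5 these were 2.63 and 1.53. The call against NL was lost in 7 of 18 alternatives, with adjusted p up to 0.218, among them the *Xist* covariate and the fits without WT library 8 or 9.

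**Figure D4:**
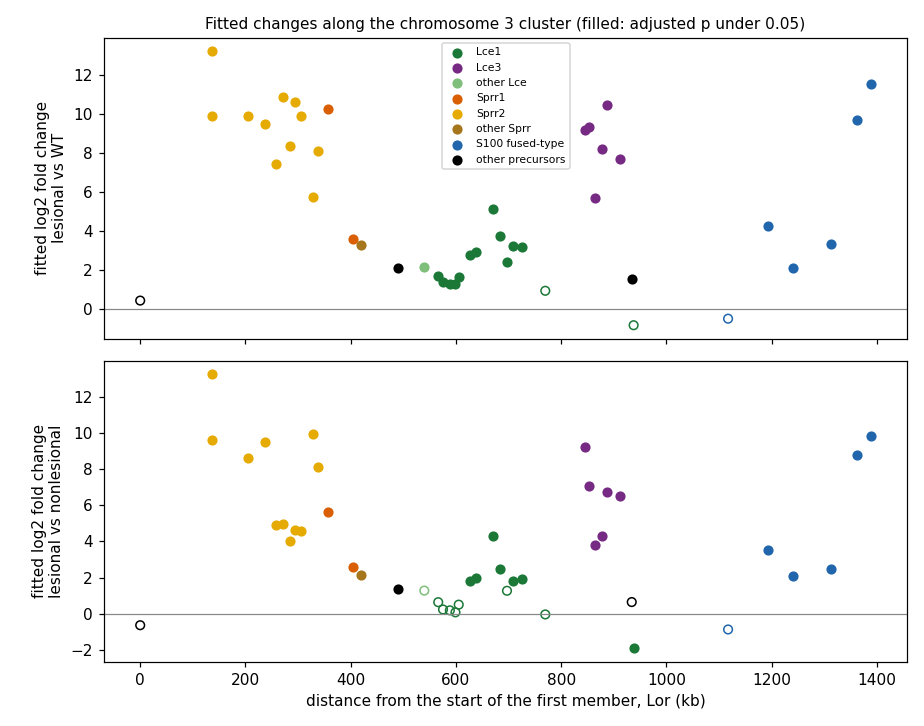
Fitted log2 fold change of the tested members on chromosome 3, by distance from the start of *Lor* in kb, for lesional against WT (top) and nonlesional skin (bottom). Filled points passed an adjusted p of 0.05. Against WT, all *Sprr2* and *Lce3* points lay above 5.69 and the *Lce1* points between -0.84 and 5.12. Fitted changes of genes at 0 in a group depend on the prior count and are no bound.

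The transglutaminases all rose against WT. *Tgm1*, the membrane-bound enzyme that cross-links the envelope, was 37.6, 33.0 and 33.5 CPM in WT, 55.2 and 59.5 CPM in NL, and 115, 125, 141 and 124 CPM in lesions. The 4 lesional libraries differed by at most 1.22 times, the least of the called members, and the log2 fold change was 1.86 against WT (SE 0.10, adjusted p = 4.19e-05) and 1.14 against NL (SE 0.12, adjusted p = 0.000784). *Tgm3*, the enzyme of epidermis and hair follicle, was 4.79, 9.38 and 4.30 CPM in WT, 7.70 and 7.65 CPM in NL, and 99.8, 118, 128 and 110.5 CPM in lesions, with a log2 fold change of 4.21 (SE 0.29, adjusted p = 6.48e-05) against WT and 3.89 (adjusted p = 0.000554) against NL. The hair shaft keratins were also higher in lesions, with sums of 1969, 6077, 4900 and 6275 CPM in L libraries 4 to 7. Their part in the *Tgm3* value was not tested. *Tgm5* was 13.4 to 17.7 CPM in WT, 25.4 and 19.0 CPM in NL, and 47.3, 55.7, 36.3 and 25.9 CPM in lesions, a log2 fold change of 1.45 against WT (adjusted p = 0.0027) and 0.89 against NL (adjusted p = 0.0556). Of 5 other transglutaminase genes tested, *Tgm6* rose from at most 0.0245 CPM to 19.8 to 39.5 CPM, while *Tgm7* and *Tgm2* fell, by 3.47 and 2.00 on the log2 scale against WT.

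Per kilobase of exon, *Lor* took a smaller and *Sprr1* a larger share of the precursor mRNA in each lesional library than in any WT or NL library. Shares were taken of the summed CPM per kb over the 48 members that are not transglutaminases, with no test, since 3 libraries against 4 cannot reach an exact two-sided p of 0.05. *Lor* made up 27.4 to 29.2% in WT, 31.3 and 26.7% in NL, and 11.3, 8.92, 9.96 and 6.48% in L libraries 4 to 7. *Sprr1* genes made up 5.38 to 7.62% in WT, 5.26 and 7.64% in NL, and 14.7, 23.6, 22.4 and 22.6% in lesions. *Lce1* genes made up 39.9 to 43.1% in WT and 44.6 and 43.9% in NL, and 38.0, 27.8, 21.2 and 20.8% in lesions, whereas *Sprr2* genes made up at most 0.183% in WT and NL skin and 6.92, 4.24, 13.8 and 2.71% in lesions. The annotated exons of *Sprr2a1*, *Sprr2a2* and *Sprr2a3* total 2883 to 3003 bases against 609 to 784 bases in the other tested *Sprr2* genes, which lowers their level per kb. *Tchh* and *Tchhl1* together took 6.31 to 28.1% in lesions. With them left out, the share of *Lor* was 9.00 to 12.0% and that of *Sprr1* 15.7 to 31.4% in lesions, still apart from the other libraries. By group mean CPM per kb, *Lor* was first in WT (410) and NL skin (853), and *Sprr1a* was first in lesions (1111), ahead of *Tchh* (748), *Crct1* (590) and *Lor* (551).

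**Figure D5:**
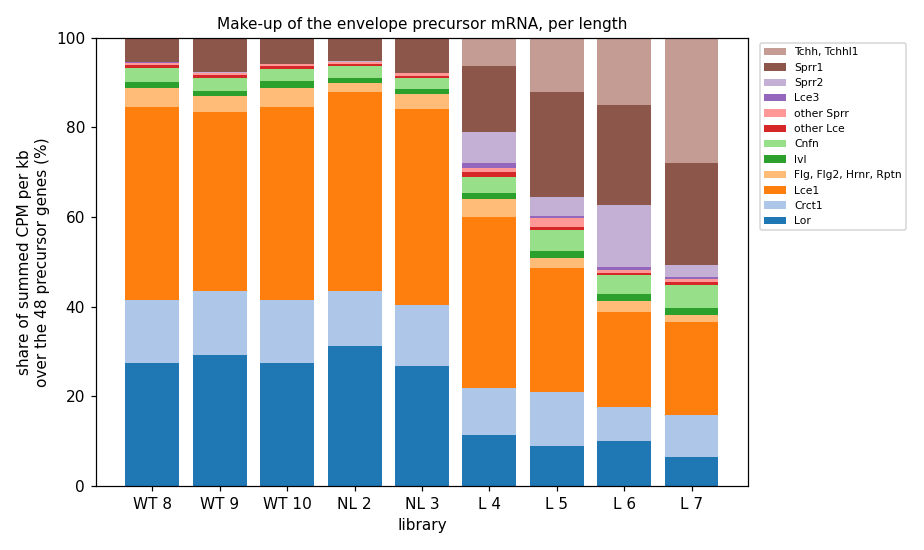
Share of each kind of envelope precursor in the summed CPM per kb of exon over 48 genes (stacked bars, %), for each skin library. *Lor* fills 26.7 to 31.3% of the WT and nonlesional bars and 6.48 to 11.3% of the lesional bars, and *Sprr1* 5.26 to 7.64% and 14.7 to 23.6%.

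Nonlesional TG skin lay above WT skin for most members without a call. None of the 48 passed the adjusted threshold in either direction by edgeR, as none (0%) of all genes tested did, and DESeq2 called 1, *Tgm1*. At an unadjusted p under 0.05, 26 members were higher and none lower, beside 5.46% and 2.21% of all genes tested. The 26 included *Sprr1b* and 5 *Sprr2* genes (*Sprr2d* to *Sprr2h*), whose NL counts came mostly from NL library 2. Also among them were 2 scarce *Lce3* genes, *Lce3c* and *Lce3d*. Both NL libraries lay above all 3 WT libraries for 31 members, including all 14 *Lce1* genes, as for 18.6% of all genes tested. The median log2 fold change was 1.05 over the 48 and 0.00 over all genes tested. *Lce1* genes were 0.80 to 1.40 higher on the fitted log2 scale, *Lor* 1.06 (SE 0.36, adjusted p = 0.59) and *Tgm1* 0.72 (SE 0.11, adjusted p = 0.417). The 11 basal keratinocyte genes summed to 6458 to 7916 CPM in WT and 11530 and 11630 CPM in NL skin. With libraries scaled to that sum, which moved the median of all genes by -0.68, the median of the 48 was 0.38 and that of *Lce1* was 0.43, and *Tgm3*, *Tgm5*, *Flg2* and *Sprr2a2* turned below 0.

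The 4 lesional libraries differed among themselves. Of the 44 members called higher than WT, 30 were highest in L library 4 and 5 lowest in it, and 38 were lowest in L library 7, with all 12 *Lce1* and all 6 *Lce3* genes highest in library 4 and lowest in library 7. The highest lesional value was a median of 2.93 times the lowest for *Lce1*, 5.01 for *Lce3*, 4.08 for *Sprr2* and 1.28 for the transglutaminases. *Sprr2a3*, singled out as the widest, ran from 26.3 to 523 CPM, or 19.9 times. The sums of 11 basal keratinocyte genes were 11050, 10220, 8916 and 4384 CPM in L libraries 4 to 7, in the order of the *Lce1* sums, 1799, 1398, 876 and 630 CPM, and opposite to those of the inner root sheath. Without L library 4, 44 members were higher than WT, and without L library 7, 46.

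Genes that work with the envelope were read from lists outside the 51 members, to be set beside the 23.0% of all genes tested that were higher and 20.2% lower against WT, and 13.2% and 11.8% against NL. Against WT, 8 of 9 genes of filaggrin processing rose, among them the peptidylarginine deiminases *Padi1* and *Padi3* and the protease *Casp14*, with fitted log2 fold changes of 10.67, 9.68 and 3.59. The hair shaft keratins had a median log2 fold change of 12.1, and the part of hair follicle content in the *Padi1* and *Padi3* values was not tested. Of 18 genes of the lipid envelope, 12 rose and none fell, led by *Slc27a4* (2.05), *Elovl4* (2.02) and *Pnpla1* (1.60). Of 14 plaque and junction partners, 9 rose and none fell, led by *Dsc2* (3.71), *Dsg1b* (1.52) and *Pkp3* (1.33). Of 12 proteases and inhibitors of desquamation, 10 rose and 1 fell, and the kallikreins *Klk13* and *Klk6* had log2 fold changes of 8.11 and 4.18. *Klk14* rose too, from at most 0.0495 CPM in WT to between 0.973 and 1.95 CPM in lesions. The lists' median log2 fold changes were 1.90, 0.77, 0.79 and 1.98, beside 0.06 over all genes tested. Of 22 regulators of epidermal differentiation, 10 rose and 1 fell, led by *Ovol1* (1.95), *Prdm1* (1.59) and *Tfap2a* (1.52), all transcription factors, and the list's median was 0.435. Against NL, filaggrin processing had 7 genes higher and 1 lower (median log2 fold change 1.29) and desquamation 6 and 1 (1.25). The lipid envelope had 7 higher and 1 lower (0.31), the plaque list 3 and 0 (0.10) and the regulators 6 and 1 (0.09), beside a median of 0.03 over all genes tested. All 14 plaque genes and 12 of the 18 lipid genes had NL values that all lay above the WT values, as did 18.6% of all genes tested, without a call. Their lists' median log2 fold changes of NL against WT were 0.66 and 0.55. These lists were not read with scaling to basal keratinocyte genes, which moved the median of all genes by -0.68.

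Markers of the layers were read the same way, beside the same shares of all genes tested. Of 11 basal keratinocyte genes, *Krt14* rose (log2 fold change 1.41) and *Dst* and *Krt15* fell (by 1.40 and 0.93) against WT. Of 8 spinous genes 3 rose, of 8 granular genes outside the 51 members 7 rose, and all 4 wound and hyperproliferation keratins rose, led by *Krt16* (5.76), *Krt6b* (5.53) and *Krt6a* (2.48). The granular list overlaps others, as all its genes but *Lipk* are also in another list read here. Against NL, 4 basal genes were lower and none higher (median -0.50), 1 spinous gene was higher and none lower (median -0.24), and 4 granular genes and 3 wound keratins were higher (medians 0.90 and 2.79). All 8 proliferation genes rose against WT, led by *Bub1* (4.02). Of 17 other tested genes of the epidermal differentiation complex 10 rose and none fell, among them *S100a3* (10.67) and *Prr9* (9.30). *Crnn*, encoding cornulin, was at most 0.0684 CPM in WT and 56.6 to 267 CPM in lesions, and was the single riser among 3 tested mucosal genes. Of 11 tested cytokines that act on keratinocyte differentiation 7 rose, among them *Il1b*, which was 0.499 to 3.70 CPM in WT, 366 CPM in L library 4 and 11.8 to 17.4 CPM in the other lesional libraries. *Il17a* had no counts outside lesions and 0.132 to 0.883 CPM in them. All 57 tested keratin-associated protein (*Krtap*) genes of the hair shaft rose. Of 8 adipocyte genes 4 fell and of 10 skeletal muscle genes 3 fell, and of 8 sebaceous genes 4 rose and 1 fell. Of 6 T cell genes 3 rose and of 7 tested neutrophil genes 2 rose. The muscle and neutrophil counts are near the 20.2% lower and 23.0% higher of all genes tested, and no adipocyte or muscle gene was called against NL. In all 10 muscle and all 8 adipocyte genes the lesional values lay below all WT values, as for 23.4% of all genes tested. Their median log2 fold changes were -3.83 and -1.75 against WT, and -3.51 and -1.4 against NL. Of 34 tested *Hox* genes, which mark body position, 1 rose and 13 fell. Their sum was 185 to 242 CPM in WT and NL skin and 73.6 CPM in L library 4 and 136 to 197 CPM in the other lesional libraries. The part of these lists in the members' values was not tested.

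The series also held inguinal lymph nodes, with 3 libraries each of WT and *Ifnk* TG mice untreated (NoTx) and 3 each after ultraviolet irradiation (UVTx). In these 12 libraries, of 27599809 to 36428435 counts, 49 of the 51 members never exceeded 3 counts. *Tchh* reached 6 counts, and *Tgm1* had 161 to 534 counts in all 12.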

How the data were processed

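Poly-A RNA was sequenced as 151-base read pairs per the labels. The authors trimmed reads with cutadapt 4.8, aligned them to GRCm38 with STAR 2.7.8a and estimated counts per gene with RSEM 1.3.3. The annotation release was not given in the sources used here. The deposited values are expected (estimated) counts, which were whole numbers in the file. A rounding step before the fit therefore left them unchanged. RSEM shares reads between similar genes, so that values of near-identical copies depend on its model.

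The 9 skin libraries were fitted by group in one model with edgeR 4.0.16 in R 4.3.3 (TMM, filterByExpr, robust glmQLFit, glmQLFTest), with Benjamini-Hochberg adjustment over 19101 tested genes and a threshold of 0.05. The study used DESeq2 (here 1.42.0), run as an alternative with other normalizations, filters and fits without each library. A gene without counts in a group was bounded by 3 counts per library, and exact counting intervals were at 95%. The test was tried on simulated data with known changes. Exon lengths and positions were taken from GENCODE M21 and promoters from RefSeq. Lymph node libraries, counted in a separate table, were described only by counts. Replicate pairs differed by more than sampling noise (mean chi-square per gene of 58.8 or more).

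The members and gene lists were chosen with earlier results of these data known. Genes given by library were the 13 listed singly and, in each subfamily, the tested members with the highest mean CPM and the highest and lowest fitted change in lesional against WT skin. Of other lists, up to 3 called genes with the largest change were named.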

Additional observations from a re-analysis of the deposited data

Results flagged for a closer look

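*Hrnr* in L library 4, at 971 CPM, stood apart from the other 3 lesional libraries, which lay between 295 and 339 CPM. The gap was 0.935 of the range of the 4 values, above Dixon's 95% critical value for 4 samples. Of the 24 genes given by library this was the single such value, and chance alone gives about 1 in 20 groups. Without L library 4, *Hrnr* was called higher than in WT and NL, with fitted log2 fold changes of 1.50 and 1.51.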

How the results depend on the processing

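No paired analysis was possible because each sample number occurs once among the skin libraries and no label ties libraries to a mouse. Against WT, the count of members higher was 44 and became 26 of 30 tested with at least 10 counts required in every library, since fewer genes were tested, and 41 to 46 when single libraries were left out. The count lower was 0 and became 1 with DESeq2 and 1 with scaling to basal keratinocyte genes, and 0 to 1 with single libraries left out, the 1 without L library 7. Against NL, the count higher was 35 and became 17 with at least 10 counts in every library, 18 with glmTreat, which asks for changes beyond 1 on the log2 scale, 20 at an adjusted p under 0.01 and 13 to 38 with single libraries left out. The count lower was 1 and became 0 with glmTreat, 0 at an adjusted p under 0.01 and 0 to 1 with single libraries left out. For NL against WT, 0 became 1 with DESeq2 and 0 to 0 with single libraries left out.

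Of the 24 genes given by library, 422 of 426 values against WT kept direction and side of the threshold and 4 passed it anew, and against NL 395 of 426 did so, 25 missed the threshold and 6 passed it anew. For NL against WT, 9 uncalled values changed sign. Scaling to basal genes gave *Flg2* -0.31, *Tgm3* -0.35, *Tgm5* -0.11 and *Sprr2a2* -0.34. *Hrnr*, at -0.01, became 0.15 with *Xist* as a covariate, 0.05 without WT library 8 and 0.13 without NL library 2. Leaving out single libraries, *Flg2* ran from -0.012 without NL library 3 to 0.64, *Hrnr* from -0.19 without NL library 3 to 0.13, and *Sprr2a2* from -0.45 without NL library 2 to 0.77. Scaling to basal genes moved the median of all genes by 0.60 for lesional against NL, where 1658 genes were then higher and 268 lower, against 2519 and 2263. The cause was not tested. DESeq2 called 8836, 5918 and 62 of all genes for lesional against WT, lesional against NL and NL against WT, and on simulated data it made more false calls than edgeR in each of these comparisons. The simulated data took their spread from edgeR and changed few genes, in the lesional group alone. They cannot rank the tools on the real data. Genes at 0 outside lesions are limited by depth to lower bounds.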
